A study of Mus musculus with 72 samples.

Results

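Reticulocyte ubiquitin and organelle clearance genes were followed in the blood of irradiated mice. The set holds 10 genes, named by the gene column of the array files and each measured by its brightest detected probe: Wdr26, Yod1, Ubac1, Ube2h, Ube2o, Ube2l6, Fbxo9, Trim10, Bnip3l and Ulk1. They are 10 of 16086 genes with a detected probe, and all 10 were among the 10328 genes tested. The members were selected on earlier results of these same data, namely the levels of the genes by exposure and day against the controls of the day. Differences from controls are therefore given as a description, with no test. The choice has no numerical threshold, so there are no members just inside or outside of one. Tests of the 10 genes were run on exposure against exposure, the controls of different days, and the spread between mice of 1 group. The choice did not use these comparisons directly. The irradiated mice are the same, however, so the tests of exposure against exposure are not independent of the choice. Related genes outside the set were also tested against controls.

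The study asked how blood gene expression after neutrons compares with that after x-rays. Male C57BL/6 mice, 8 to 10 weeks old, received a single whole-body exposure or a sham exposure, and the neutron beam carried some gamma rays as well. Blood was drawn by cardiac puncture into an RNA-stabilizing solution, globin RNA was reduced, and the RNA of 1 mouse was hybridized to each of 72 one-colour arrays in 13 groups. The sham-irradiated controls were 5 mice at day 1, 5 at day 3 and 6 at day 7, and the same controls served every exposure of their day. After 0.25 Gy neutrons there were arrays of 6 mice at day 1, 6 at day 3 and 5 at day 7. The study's methods give 6 mice for that last group and name no loss from it. After 1 Gy neutrons there were arrays of 6 mice at each of days 1 and 7. X-rays at 1 Gy had arrays of 6 mice at day 1, 5 at day 3 and 5 at day 7, and x-rays at 4 Gy of 5 mice at day 1 and 6 at day 7. Day 3 was taken from the sample labels alone. All cells of the blood are measured together, so fewer cells of a type and less RNA per cell cannot be told apart.

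A reticulocyte is a young red cell that has lost its nucleus and still carries messenger RNA, ribosomes and mitochondria. As it matures it degrades many of its remaining proteins through ubiquitin and delivers its mitochondria to autophagy. Ubiquitin is a small protein that is activated, carried by an E2 conjugating enzyme and attached by an E3 ligase. Blood of a mouse normally holds some reticulocytes, and their number follows the output of the bone marrow, a tissue that is sensitive to radiation. Ube2o, Ube2h, Wdr26, Ubac1, Fbxo9 and Trim10 belong to the conjugation side of this system, Yod1 removes ubiquitin, Ube2l6 carries the ubiquitin-like protein ISG15, and Bnip3l and Ulk1 act in autophagy.

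The probes behind the most informative readings are shown first, as given by the array files with their mm9 positions. The files do not say whether a probe lies in an exon or a UTR. Trim10, an erythroid RING ligase of the TRIM family, is read at chr17:37014159-37014218 on the plus strand. Ube2o, an E2 and E3 hybrid that marks unassembled globin and ribosomal proteins in reticulocytes, is read at chr11:116399379-116399438 on the minus strand. Wdr26, a subunit of the CTLH ligase, is read at chr1:183113863-183113922 on the minus strand.
Trim10 probe: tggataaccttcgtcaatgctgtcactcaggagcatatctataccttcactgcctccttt
Ube2o probe: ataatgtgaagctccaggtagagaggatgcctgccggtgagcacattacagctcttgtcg
Wdr26 probe: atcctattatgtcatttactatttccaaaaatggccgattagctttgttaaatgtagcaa

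Because 9 of the 10 genes moved together, the 250 bases before their RefSeq start sites (build GRCm38.p6) were searched on both strands for GATAA, the core of the site bound by GATA factors, and for CACCC, the core of the element bound by Klf1. The table held 10 promoters for 8 of the genes, with 2 start sites each for Ube2h and Fbxo9. Promoters of Ube2o and Bnip3l were not in the table. GATAA was found in 2 of the 10 promoters, against 22.6% of all 32851 promoters of the table. CACCC was found in 8 of the 10, against 52.0% of all. By gene it was found in 7 of the 8, with both starts of Fbxo9 holding it. Ulk1, which did not move with the others, is among them, so the count is not particular to the genes that moved together. All are matches of letters only. The promoters that hold GATAA are printed with that of Ulk1, the gene that did not move with the others, and capitals mark GATAA and CACCC or their reverse complements TTATC and GGGTG. They lie at chr17:36869324-36869573 on the plus strand (Trim10), chr6:30243804-30244053 on the minus strand (the second start of Ube2h) and chr5:110810082-110810331 on the minus strand (Ulk1).
Trim10: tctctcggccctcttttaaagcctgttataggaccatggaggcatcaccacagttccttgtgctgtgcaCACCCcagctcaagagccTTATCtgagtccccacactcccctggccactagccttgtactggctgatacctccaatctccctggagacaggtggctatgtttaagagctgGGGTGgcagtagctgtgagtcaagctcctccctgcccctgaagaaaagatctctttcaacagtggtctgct
Ube2h: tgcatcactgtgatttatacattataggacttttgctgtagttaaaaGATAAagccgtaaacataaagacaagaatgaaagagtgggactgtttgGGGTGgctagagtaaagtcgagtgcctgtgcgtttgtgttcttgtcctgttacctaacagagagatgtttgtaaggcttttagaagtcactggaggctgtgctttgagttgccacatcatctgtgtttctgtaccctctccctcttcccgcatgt
Ulk1: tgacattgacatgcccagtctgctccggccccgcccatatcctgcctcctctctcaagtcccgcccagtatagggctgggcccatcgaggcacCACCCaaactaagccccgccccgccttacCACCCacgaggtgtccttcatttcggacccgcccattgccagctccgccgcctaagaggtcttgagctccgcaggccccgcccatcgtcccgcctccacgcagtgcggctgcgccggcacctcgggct

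Levels are log2 of the background-corrected signal minus the median of the detected probes of the array, so a value of 0 is the level of a median probe and a step of 1 is a doubling of the signal. One probe is never set against another. All 10 genes were well above background on 72 of 72 arrays and none was saturated. Outlier spots left 1 array without a value for Bnip3l and 3 without one for Ulk1. The share of spots well above background was 40.2 to 67.3% (median 58.6%). It was lowest after 1 Gy neutrons at day 7, at 40.2 to 50.3%, against 54.3 to 63.9% in the controls of that day. Red cell precursor markers were present as the name of the set requires, with Slc4a1, Alas2, Klf1, Gata1 and Hemgn well above background on 72 arrays, Rhag on 70 and Ank1 on 69.

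At day 1 the genes of the set were lower after 1 Gy of either radiation and lowest after 4 Gy x-rays, with Ulk1 apart. The median log2 difference of the 10 genes from the controls was -0.31 after 0.25 Gy neutrons, -1.37 after 1 Gy of neutrons, -1.49 after 1 Gy of x-rays and -1.94 after 4 Gy of x-rays. Over all genes tested it lay between 0.01 and 0.14. Without Ulk1, the single genes ran from -2.05 to -0.76 after 1 Gy neutrons, from -2.11 to -0.78 after 1 Gy x-rays and from -3.38 to -1.46 after 4 Gy x-rays. After 0.25 Gy neutrons all 10 genes overlapped their controls, and 1.8% of all genes lay wholly below them.

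In the 4 Gy x-ray group of day 1, 9 of the 10 genes lay wholly below the controls, where 23.3% of all genes did. Ulk1 lay wholly above, a side on which the share of all genes was not counted. Trim10 read 2.58, 2.51, 2.58, 4.14 and 3.90 in the 5 controls and 0.50, -0.50, -1.5, 0.64 and -0.30 in the 5 mice after 4 Gy x-rays, a difference of -3.38 ± 0.46 (SE), or 10.4-fold. The groups did not touch, although the controls themselves were spread widely. Yod1, an OTU deubiquitinase, read -0.25, -0.06, 0.28, 1.01 and 0.77 in the controls and -2.05, -2.82, -2.72, -2.27 and -2.31 after 4 Gy x-rays, lower by 2.78 (log2 difference -2.78). Ube2o read 7.48, 7.78, 7.45, 8.28 and 8.26 in the controls and 5.44, 4.65, 3.93, 5.81 and 5.61 after 4 Gy x-rays, a difference of -2.76. Every irradiated mouse was below every control for both genes. Bnip3l, also called Nix, the receptor that brings reticulocyte mitochondria to autophagy, read 8.71, 8.47, 8.25, 8.65 and 8.85 in the controls and 7.34, 6.43, 6.06, 7.89 and 7.31 after 4 Gy x-rays, a difference of -1.58.

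After 1 Gy neutrons at day 1, 5 of the 10 genes lay wholly below the controls (Wdr26, Yod1, Ubac1, Ube2o and Ube2l6), where 13.8% of all genes did. After 1 Gy x-rays, 7 of the 10 did (all but Ube2l6, Bnip3l and Ulk1), where 5.81% of all genes did. Within the group after 1 Gy neutrons, replicates 2 and 4 lay closer to the controls than the other mice did for Trim10 and Ube2h. Trim10 was 2.65 and 3.42 in these mice, while the other 4 mice lay between 0.51 and 1.63. Ube2h, the E2 enzyme that works with the CTLH ligase, showed the same split, with 1.28 and 2.16 in these mice and -0.62 to 0.64 in the others, against 2.07 to 3.09 in the controls.

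Ulk1, the kinase that starts autophagy, went the other way at day 1. It read 2.58, 2.55, 2.04, 2.64 and 2.31 in the controls, and 3.43, 5.27, 4.97 and 4.16 in the 4 mice with a value after 4 Gy x-rays, a difference of 2.04 ± 0.35 (SE). All 5 measured mice after 1 Gy neutrons were above the controls as well, from 3.17 to 4.89, with a difference of 1.17. After 1 Gy x-rays the range was 2.62 to 3.76 and overlapped that of the controls.

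**Figure D1:**
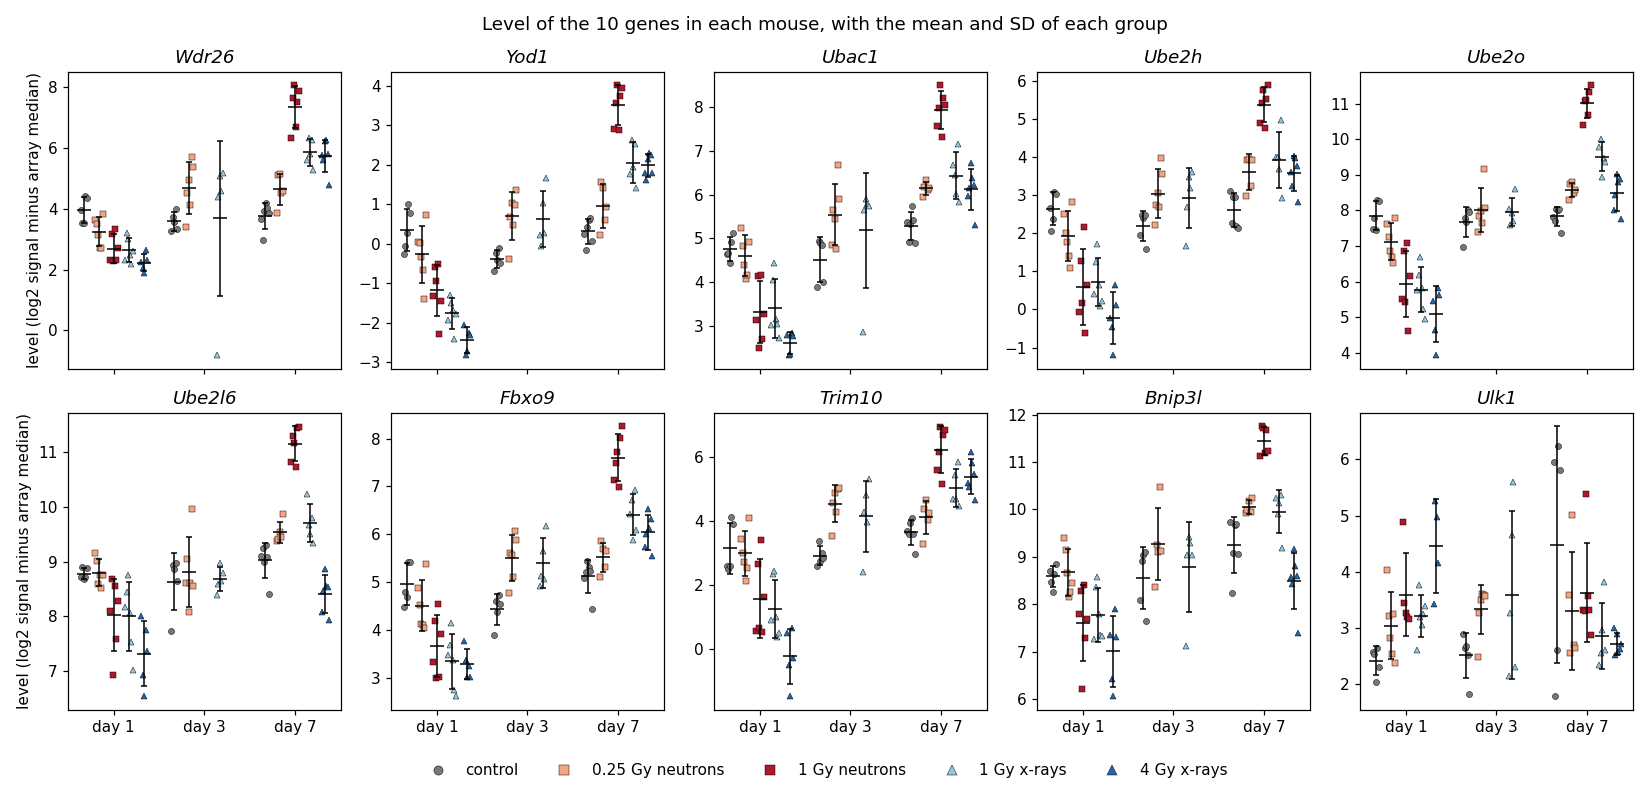
Level of each of the 10 genes in every mouse, as log2 signal minus the array median, by day and exposure; points are mice and the bars give mean and SD of a group. In 9 panels the groups after 1 Gy or more have lower means than the controls at day 1. In the same panels the group after 1 Gy neutrons at day 7 has the highest mean, though its mice overlap x-ray mice for Wdr26, Ube2h and Trim10. Ulk1 does not follow. Ube2l6 and Bnip3l have means below those of the day 7 controls in the 4 Gy x-ray group (-0.61 and -0.75). With centring on spike-in probes or with another background correction, the distance of the neutron group from the x-ray groups at day 7 shrinks or turns for several genes.

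Red cell membrane genes, 13 of 15 listed, moved with these readings at day 1. Their mean level was 0.13 to 1.17 in the controls, -2.06 to 0.38 after 1 Gy neutrons, -1.84 to -0.32 after 1 Gy x-rays and -3.24 to -1.25 after 4 Gy x-rays. Hepatocyte markers, of which 7 of 14 were measured, stood at 0.90 to 8.09 in the controls and 8.84 to 9.57 after 4 Gy x-rays, and B cell markers at 2.81 to 3.58 and -1.5 to -0.15. Their part in the readings of the 10 genes was not tested. Day 1 controls were all scanned on a date that 0.25 Gy neutrons and 4 of 6 mice after 1 Gy neutrons shared, and within it the median of the 10 genes was -1.20 for 1 Gy neutrons. No x-ray array of day 1 shared a scan date with the controls, so scan date and exposure cannot be told apart there.

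Related genes gave the context at day 1. The lists were written with earlier results of these data known, and a gene was called by limma at p below 0.001 with an FDR by Benjamini and Hochberg below 5%, taken over all 10328 genes. Of 34 further ubiquitin genes of red cell precursors, 23 were tested. After 1 Gy neutrons 5 of these fell, where 10.4% of all genes were called lower, and after 4 Gy x-rays 11 fell, where 18.4% of all were, with a list median of -0.96. In the 1 Gy x-ray group 8 fell, where 4.51% of all genes did, Rnf123 by 0.77, Trim58 by 1.51 and Fbxo7 by 1.06 among them. Fbxo7, the substrate receptor of an SCF ligase, also fell in the neutron group by 1.20 and in the 4 Gy x-ray group by 1.41 (limma adjusted p = 0.0028 and 7.3e-05), and Trim58, an erythroid ligase, fell by 2.10 after 4 Gy x-rays (adjusted p = 0.00021). Of the CTLH complex, 3 of 10 measured genes were tested, and 2 fell in the 1 Gy x-ray group and 1 in the 4 Gy x-ray group, while 0 were called by limma after 1 Gy neutrons, with 2 at an unadjusted p below 0.05. Ranbp10 was lower by 1.48 after 1 Gy x-rays and by 1.52 after 4 Gy (differences of -1.48 and -1.52).

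Genes of ISG15 conjugation and the interferon response were called mainly higher at day 1 after 1 Gy neutrons and 4 Gy x-rays. Of the 14 tested (18 of 19 listed were measured), 10 rose after 1 Gy neutrons, where 7.16% of all genes were called higher, with a list median of 1.96. After 4 Gy x-rays 9 rose and 1 fell, where 16.9% of all genes were called higher. In the 1 Gy x-ray group 2 rose and 1 fell, where 3.18% and 4.51% of all genes did, and the mean level of the list, 1.30 to 2.18, overlapped that of the controls, 1.11 to 1.87. Usp18, the enzyme that strips ISG15 from proteins, rose by 2.32 and 2.31 in the first pair of groups and did not pass at 0.83 after 1 Gy x-rays. Ube2l6, the E2 of the same conjugation, was lower at day 1, as was Isg15 itself, which did not pass the test at -0.77 for 1 Gy neutrons, -1.15 for 1 Gy x-rays and -1.14 for 4 Gy x-rays. Of 24 autophagy genes tested (36 of 38 listed were measured), 6 rose and none fell after 1 Gy neutrons, 1 rose and 1 fell after 1 Gy x-rays, and 9 rose and 2 fell after 4 Gy x-rays. Over all genes, 7.16% were called higher and 10.4% lower after 1 Gy neutrons. These shares were 3.18% and 4.51% after 1 Gy x-rays, and 16.9% and 18.4% after 4 Gy x-rays. Map1lc3b, which encodes the autophagosome protein LC3B, rose by 1.17 in the neutron group and 1.26 in the 4 Gy x-ray group. Bnip3, the paralogue of Bnip3l, rose by 2.48 after 4 Gy x-rays. Gabarapl2, of the same family as LC3B and abundant in red cell precursors, fell by 1.57 there.

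Exposure against exposure, no gene of the set passed the test at day 1. For 1 Gy neutrons against 1 Gy x-rays, 0 of 10 were called by limma, where 9.09% of all genes were, and 0 had an unadjusted p below 0.05. The largest difference was 0.58 for Yod1 (95% interval -0.06 to 1.22, limma adjusted p = 0.193), and the intervals of Trim10 (-0.89 to 1.53) and Ube2h (-1.07 to 0.83) were wide. For 1 Gy neutrons against 4 Gy x-rays 0 were called, where 0.0581% of all genes were, with 2 of 10 below an unadjusted 0.05, a level that 18.5% of all genes reached. The differences were 1.80 for Trim10 (95% interval 0.54 to 3.06) and 1.25 for Yod1 (0.57 to 1.94). On the single scan date that held both groups, with 2 neutron mice and 1 x-ray mouse, they were 0.57 and 0.19.

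Between doses of a radiation type, no gene of the set passed the thresholds at day 1 either. For 4 Gy against 1 Gy x-rays 0 genes were called, where 17.6% of all genes were, and 5 of 10 lay below an unadjusted 0.05, as did 49.2% of all genes. The smallest p-values were those of Trim10 at -1.48 (95% interval -2.51 to -0.46, limma adjusted p = 0.0243) and Ulk1 at 1.25 (0.47 to 2.02, adjusted p = 0.0151). On the scan date shared by 1 mouse after 4 Gy and 4 after 1 Gy, Trim10 differed by -0.18 and Ulk1 by 0.35, and the median of the set was -0.097 against -0.68 over all mice. For 1 Gy against 0.25 Gy neutrons 0 were called, where 1.43% of all genes were, with 8 of 10 below an unadjusted 0.05, as were 26% of all genes. Their differences ran from -1.42 for Trim10 to -0.78 for Ube2l6. Leaving out replicate 4 of the 1 Gy neutron group gave 2 calls here, and leaving out replicate 1 of the 4 Gy x-ray group gave 1 call against 1 Gy x-rays.

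At day 3 the set had turned upwards in part. The median difference from controls was 0.95 for 0.25 Gy neutrons and 0.71 for 1 Gy x-rays, against 0.05 and 0.00 over all genes. With spike-in centring the x-ray median was -0.021, where all genes stood at -0.74. After 0.25 Gy neutrons 2 of the 10 genes lay wholly above the controls (Fbxo9 and Trim10), where 2.05% of all genes did. Fbxo9, an F-box receptor of an SCF ligase, read 3.90, 4.60, 4.37, 4.74 and 4.55 in the controls and 4.78 to 6.08 (median 5.59) in the 6 mice after 0.25 Gy neutrons. In the 2 of these mice scanned with the controls the median over the set was 0.38, so less of the difference was seen within the scan date.

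In the 1 Gy x-ray group of day 3, 2 of the 10 genes lay wholly above the controls (Yod1 and Fbxo9), where 6.06% of all genes did. Replicate 1 of this group stood apart. Wdr26 read -0.82 in that mouse and 4.38, 5.09, 4.59 and 5.19 in the others, Ubac1 read 2.85 against 5.64, 5.91, 5.78 and 5.75, and Bnip3l 7.12 against 9.04, 9.43, 9.29 and 9.05. A second Wdr26 probe read 2.94 in this mouse. Yod1, Ube2o and Fbxo9 of this mouse lay among or near the others. Without it, a comparison added after seeing the data, 6 of the 10 genes lay wholly above the controls (Wdr26, Yod1, Ubac1, Ube2h, Fbxo9 and Trim10), where 9.77% of all genes did, and Trim10 was higher by 1.69 and Wdr26 by 1.23.

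With the median centring used, the set at day 7 was highest after 1 Gy neutrons. The median log2 difference of the 10 genes was 0.69 after 0.25 Gy neutrons, 2.63 after 1 Gy neutrons, 1.30 after 1 Gy of x-rays and 0.88 after 4 Gy of x-rays. Over all genes tested it was 0.05, 0.32, 0.04 and -0.05. After 1 Gy neutrons 9 of the 10 genes lay wholly above the controls, where 23.4% of all genes did. After 1 Gy x-rays 7 did (all but Ube2h, Bnip3l and Ulk1), where 5.07% of all genes did, after 4 Gy x-rays 4 did (Wdr26, Yod1, Fbxo9 and Trim10), where 9.44% did, and after 0.25 Gy neutrons 4 did (Ubac1, Ube2o, Ube2l6 and Bnip3l), where 4.28% did. The controls were scanned on 1 date with all mice after 0.25 Gy neutrons and 1 of 6 after 1 Gy neutrons, for which the median of the set was 2.15. No x-ray array of day 7 shared that date, so scan date and x-ray exposure cannot be told apart there.

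The size of these differences, and the order of the exposures, depended on how the arrays were scaled. With spike-in probes as the reference, the median of the set after 1 Gy neutrons was 0.57 while that of all genes was -2.13, so the set still stood 2.70 above all genes. With a normexp background correction the median was 1.11, or 0.79 above that of all genes, and with quantile normalization 1.5, or 1.43 above. With spike-ins the median after 1 Gy x-rays fell to 0.39, where all genes stood at -0.96. That after 4 Gy x-rays was 1.12, above the 0.57 after 1 Gy neutrons. After 0.25 Gy neutrons the median turned to -0.42 with spike-ins, where all genes stood at -1.14, and to -0.24 with normexp.

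Wdr26, Yod1 and Ube2o differed most from the controls after 1 Gy neutrons at day 7. Wdr26 read 2.99 to 4.18 (median 3.90) in the 6 controls and 6.34 to 8.07 (median 7.58) in the 6 mice after 1 Gy neutrons, a difference of 3.58 ± 0.31 (SE), or 11.9-fold. A second Wdr26 probe gave a smaller difference of 2.95, and 1.25 after 4 Gy x-rays, where the probe used gave 1.97. Ube2o read 7.37 to 8.04 (median 7.92) in the controls and 10.40 to 11.51 after 1 Gy neutrons, a difference of 3.18. Ube2h read 2.14 to 3.12 (median 2.61) in the controls and 4.77 to 5.89 (median 5.47) after 1 Gy neutrons, a difference of 2.77. Every mouse after 1 Gy neutrons lay above every control for these genes. Ubac1, the partner of Rnf123 in the KPC ligase, was higher by 2.66, Trim10 by 2.60 and Fbxo9 by 2.48. After x-rays the lead was smaller. Wdr26 read 5.61, 6.34, 5.79, 6.28 and 5.27 after 1 Gy and 4.79 to 6.26 (median 5.78) after 4 Gy, Trim10 read 4.69, 5.46, 4.69, 5.86 and 4.49 after 1 Gy and 4.66 to 6.18 (median 5.33) after 4 Gy, and both genes lay wholly above the controls in both groups.

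Yod1 read -0.15 to 0.66 (median 0.34) in the controls of day 7, 2.88 to 4.01 (median 3.64) after 1 Gy neutrons, 1.77, 2.62, 1.95, 2.53 and 1.40 in the 1 Gy x-ray group, and 1.63 to 2.31 (median 1.97) after 4 Gy x-rays. All 3 exposures lay wholly above the controls for this gene. After 0.25 Gy neutrons it read 0.23, 1.57, 1.42, 0.59 and 0.93, which overlapped the controls.

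Ube2l6 and Bnip3l parted from the rest after 4 Gy x-rays. Ube2l6 read 8.42 to 9.30 (median 9.09) in the controls, 10.72 to 11.46 (median 11.23) after 1 Gy neutrons and 10.24, 9.66, 9.50, 9.79 and 9.35 after 1 Gy x-rays, and 7.94 to 8.87 (median 8.50) after 4 Gy x-rays. Bnip3l read 8.23 to 9.73 (median 9.38) in the controls, 11.12 to 11.75 after 1 Gy neutrons, 10.25, 9.91, 10.13, 10.31 and 9.18 in the 1 Gy x-ray group, and 7.40 to 9.16 (median 8.59) after 4 Gy x-rays. The differences from controls after 4 Gy x-rays were -0.61 and -0.75, with overlap, while the other 7 genes apart from Ulk1 were higher by 0.65 to 1.97. A probe close to that of Ube2l6, listed under the transcript ENSMUST00000102642, gave -0.03, so the fall of Ube2l6 rests on the probe used. The 3 further Bnip3l probes gave -0.65, -0.48 and -0.36. Those probes are placed on chromosome 12 and the one used on chromosome 14 (chr14:67604077-67604136, mm9), so a near-identical copy may share the signal and the Bnip3l level is uncertain to that extent.

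Ulk1 was uneven in the controls of day 7, at 5.95, 1.79, 2.61, 6.24 and 5.80 in the 5 mice with a value. The 4 irradiated groups, with 2.34 to 5.38 in all, lay inside that range. Its differences from controls, from -1.76 to -0.85, had standard errors of 0.74 to 0.91, and 3 of the 5 controls were high.

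**Figure D2:**
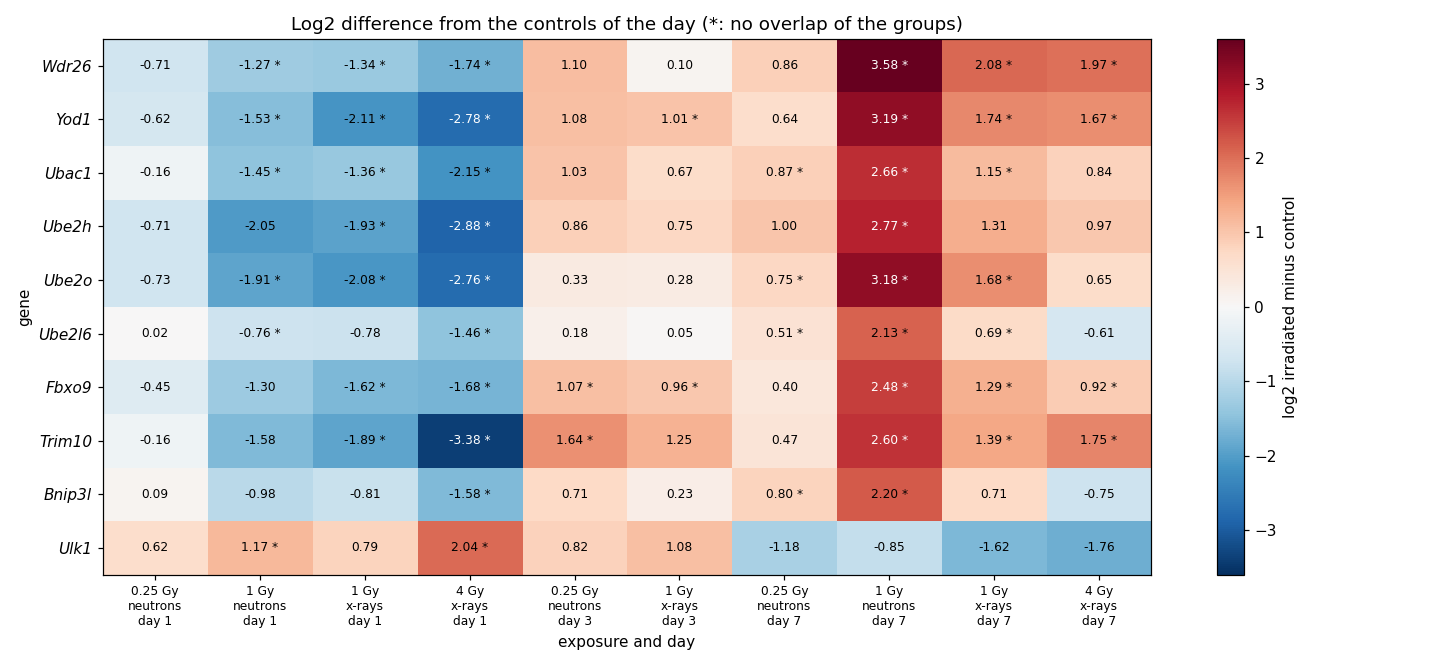
Log2 difference of each of the 10 genes (rows) from the controls of the day for each exposure and day (columns); colour and printed value give the difference and a star marks groups of mice that do not overlap. Blue at day 1 turns to red at day 7 for 9 genes, while Ube2l6 (-0.61) and Bnip3l (-0.75) are below 0 in the 4 Gy x-ray column of day 7. Under spike-in or normexp scaling the 0.25 Gy neutron column at day 7 turns to a median below 0.

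The comparison of exposures at day 7 was tested with limma on pairs of groups. Of the 10 genes, 8 were higher after 1 Gy neutrons than after 1 Gy x-rays, where 17.7% of all genes were. The difference was 1.5 ± 0.25 (SE) for Ube2o (adjusted p = 0.000956), 1.5 ± 0.24 for Bnip3l (adjusted p = 0.00083) and 1.44 ± 0.22 for Ube2l6 (adjusted p = 0.000728), with every neutron mouse above every x-ray mouse. Trim10, at 1.21 (adjusted p = 0.0161), and Ulk1, at 0.77 (adjusted p = 0.131), did not pass. The call depended on the scaling. With spike-in centring 0 of 10 were called and the median difference was 0.31 (all genes -1.18), and with normexp 0 were called and 7 of the 8 genes turned below 0, with a median of -0.18. Leaving out replicate 1 of the 1 Gy x-ray group left 4 calls. Within scan dates the median was 1.98 on the date with 1 neutron and 4 x-ray mice and 0.92 on the date with 4 neutron mice and 1 x-ray mouse.

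Against 4 Gy x-rays, 8 of the 10 genes were higher after 1 Gy neutrons, where 31.6% of all genes were. The leading differences were 2.95 ± 0.26 for Bnip3l (limma adjusted p = 9.14e-07), 2.74 ± 0.20 for Ube2l6 (adjusted p = 4.82e-07) and 2.53 ± 0.26 for Ube2o (adjusted p = 2.33e-06), and the groups did not overlap for any of the 8. Trim10 (0.85) and Ulk1 (0.91) did not pass. With spike-in centring only Trim10 was called, at -1.44, and Wdr26, Yod1, Ubac1, Ube2h and Fbxo9 turned below 0, the median being -0.58 where all genes stood at -2.42. With normexp 0 were called. Against 0.25 Gy neutrons, 9 of the 10 genes were higher after 1 Gy, where 22% of all genes were, from 1.40 for Bnip3l to 2.72 for Wdr26, and Ulk1 was not called at 0.33. Spike-in centring left 3 of these calls and normexp 0, and with scan date as a block Ube2o alone stayed called.

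**Figure D3:**
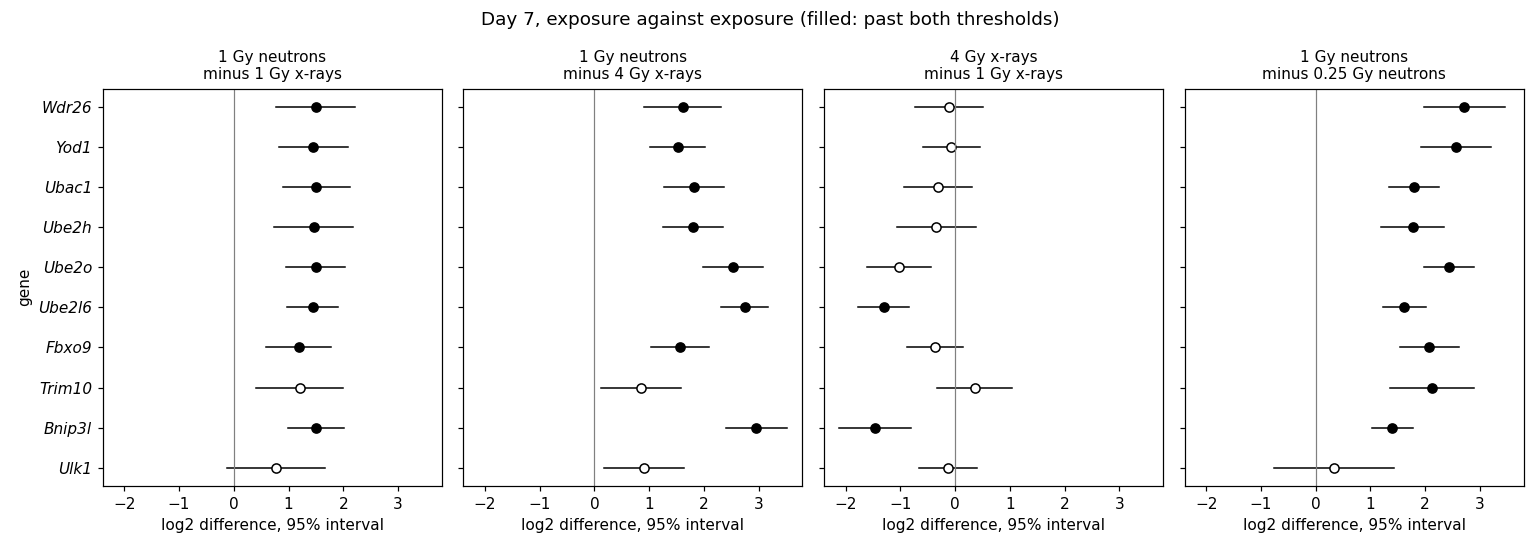
Difference between exposures at day 7 for each of the 10 genes (vertical axis), as log2 of the first group minus the second with its 95% interval; filled points passed p below 0.001 and an FDR below 5%. Under the centring used, 8, 8 and 9 genes are higher after 1 Gy neutrons in the first, second and last panel, and Ube2l6 and Bnip3l are the 2 filled points below 0 in the third; with spike-in centring the counts in those panels fall to 0, 1 and 3, the 1 being Trim10 with the opposite sign.

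Between the x-ray doses at day 7, 2 of the 10 genes were lower after 4 Gy than after 1 Gy, where 5.64% of all genes were. Ube2l6 was lower by 1.30 (95% interval of the difference -1.77 to -0.84, limma adjusted p = 0.00209) and Bnip3l by 1.46 (difference -1.46, interval -2.11 to -0.81, adjusted p = 0.00583), with no overlap of the 6 and 5 mice for either. Ube2o was next at -1.03 (adjusted p = 0.0167) and missed the threshold of p. The other 7 genes lay between -0.37 and 0.36, and the interval of Wdr26 was -0.73 to 0.51 and that of Trim10 -0.33 to 1.04. Alternatives kept both differences below 0, at -1.71 to -0.15 for Ube2l6 and -1.82 to -0.31 for Bnip3l. With spike-in centring, under which all genes stood 1.11 higher after 4 Gy, neither was called and Trim10 was called higher by 1.5. With quantile normalization Ube2l6 fell under the 1.5-fold filter and Bnip3l was not called. Leaving out replicate 1 of the 1 Gy x-ray group left 1 call.

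Levels of the red cell membrane genes overlapped between the x-ray doses at day 7. Their mean level was 1.39 to 2.52 after 1 Gy and 1.47 to 2.54 after 4 Gy, against 0.25 to 1.02 in the controls and 2.28 to 3.67 after 1 Gy neutrons, and 0 of 12 tested genes were called by limma between the x-ray doses, with 3 at an unadjusted p below 0.05. Bnip3l was 9.18 to 10.31 in the mice after 1 Gy x-rays and 7.40 to 9.16 after 4 Gy. The mean above covers membrane genes alone. Some other red cell genes, Alas2 among them, were lower after 4 Gy than after 1 Gy x-rays, as given below. Hepatocyte markers were at -0.97 to 6.39 after 1 Gy x-rays and -1.58 to 8.09 after 4 Gy, B cell markers at 1.77 to 2.73 and 0.11 to 0.67. Neutrophil markers (8 of 9 measured) were at 3.42 to 4.38 after 1 Gy neutrons and 2.11 to 2.96 in the controls. The part of these cells in the readings of the 10 genes was not tested.

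Among related genes at day 7, the 23 tested genes of the ubiquitin list were all called higher after 1 Gy neutrons (the other 11 of 34 were under the 1.5-fold filter), where 25.3% of all genes were, with a median of 2.28, and 13.4% of all genes were called lower. Ubb, a polyubiquitin gene, rose by 1.98, Rnf123 by 2.87, Fbxo7 by 2.36 and Trim58 by 2.28. Of the CTLH complex all 3 tested genes were higher, Ranbp10 by 3.04, while Maea, its RING subunit, varied too little to be tested and read -0.28. With spike-in probes as the reference the median of all genes in this comparison moves by more than 2 log2 units, as given above. The study itself reported mostly lower genes after 1 Gy neutrons at day 7, unlike the shares of all genes given here. The reason for this difference was not tested.

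After 4 Gy x-rays few genes of the list were called. Of the 23 genes 3 were higher and none lower, where 9.12% of all genes were called higher and 8.66% lower, with a median of 0.12. Rnf123 rose by 1.80 and, in the CTLH complex, Ranbp10 by 2.16, as did Slc4a1, the anion exchanger band 3, by 1.78 and Klf1, the erythroid transcription factor, by 1.71. Ubb (-0.57), Gabarapl2 (-0.89) and Alas2, the first enzyme of red cell heme synthesis (-0.56), did not pass. Against 1 Gy x-rays, Ubb fell by 1.25 (limma adjusted p = 0.00379), Gabarapl2 by 1.42 (adjusted p = 0.00392) and Alas2 by 1.26 (adjusted p = 0.00298). Of the 23 genes 7 were lower and 1 higher in that comparison, where 5.64% and 4.09% of all genes were. Slc4a1 (0.12), Rnf123 (0.38) and Ranbp10 (0.31) were not called.

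Interferon and autophagy genes were less uniform at day 7. After 1 Gy neutrons 5 of 14 interferon genes were higher, where 25.3% of all genes were, among them Isg15 by 2.74, the protein that Ube2l6 carries, and Usp18 (0.32) was not called. After 4 Gy x-rays 0 of 14 were called by limma, and 5 of the 14 lay below an unadjusted p of 0.05, with Isg15 at 0.78 and Usp18 at -0.50. Of 24 autophagy genes, 12 were higher and 2 lower after 1 Gy neutrons, against 25.3% and 13.4% of all genes, and 5 higher and 1 lower after 4 Gy x-rays, against 9.12% and 8.66%. Gabarapl2 was higher by 2.10 after 1 Gy neutrons, whereas Map1lc3b (0.26) and Bnip3 (0.11), which were called in the 4 Gy x-ray group at day 1, were not. Alox15, a lipoxygenase that opens organelle membranes in reticulocytes, was higher after 4 Gy than after 1 Gy x-rays by 1.69 (limma adjusted p = 0.00843).

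**Figure D4:**
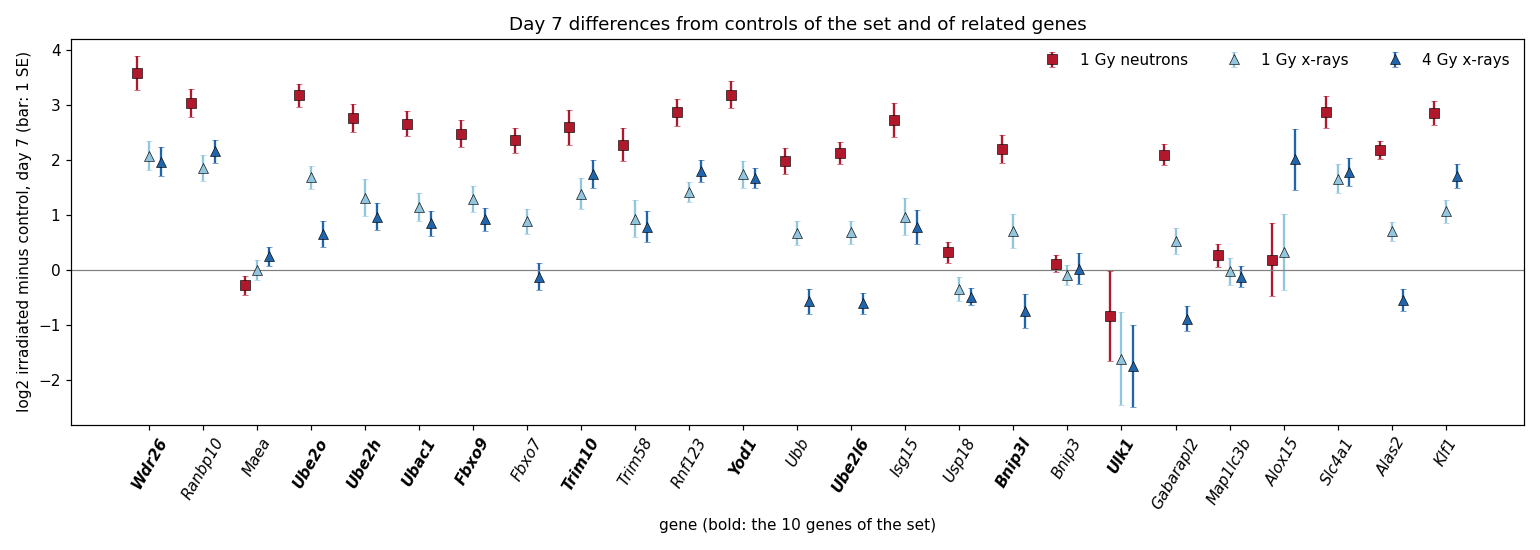
Log2 difference from the controls at day 7, with 1 SE, for the 10 genes (bold) and 15 related genes after neutrons at 1 Gy and x-rays at 1 or 4 Gy. Red points stand highest for most genes. After 4 Gy x-rays Ulk1 is lowest (-1.76), and Ubb, Ube2l6, Bnip3l, Gabarapl2, Alas2, Usp18, Fbxo7 and Map1lc3b also lie below 0. Wdr26, Ranbp10, Rnf123, Trim10, Alox15, Slc4a1 and Klf1 lie between 1.71 and 2.16 in that group. With spike-in centring the neutron differences of the set shrink to a median of 0.57.

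Mice of 1 group that had more red cell membrane RNA also had more of the set. The slope of each gene on the mean level of the 13 membrane genes was fitted with limma within groups, so that differences between exposures do not enter, although the irradiated mice are those of the other comparisons. In the 56 irradiated mice 9 of the 10 genes had a positive slope past the thresholds, where 17.5% of all genes had, and the median slope of all genes was 0.15. Trim10 gained 1.26 ± 0.07 (SE) per log2 unit of the score, Ube2h 1.02 ± 0.07 and Ube2l6 the least of the 9 with 0.56 ± 0.08 (adjusted p = 1.47e-07). Ulk1 had a slope of 0.05 (adjusted p = 0.83). In the 16 control mice 4 genes passed, where 0.93% of all genes did, namely Trim10 (1.48), Fbxo9 (0.98), Yod1 (0.97) and Ube2o (0.93). Wdr26 (0.82, adjusted p = 0.211) and Bnip3l (0.71, adjusted p = 0.604) did not. Without replicate 1 of the day 1 controls 1 call was left, and under spike-in centring or normexp 0.

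**Figure D5:**
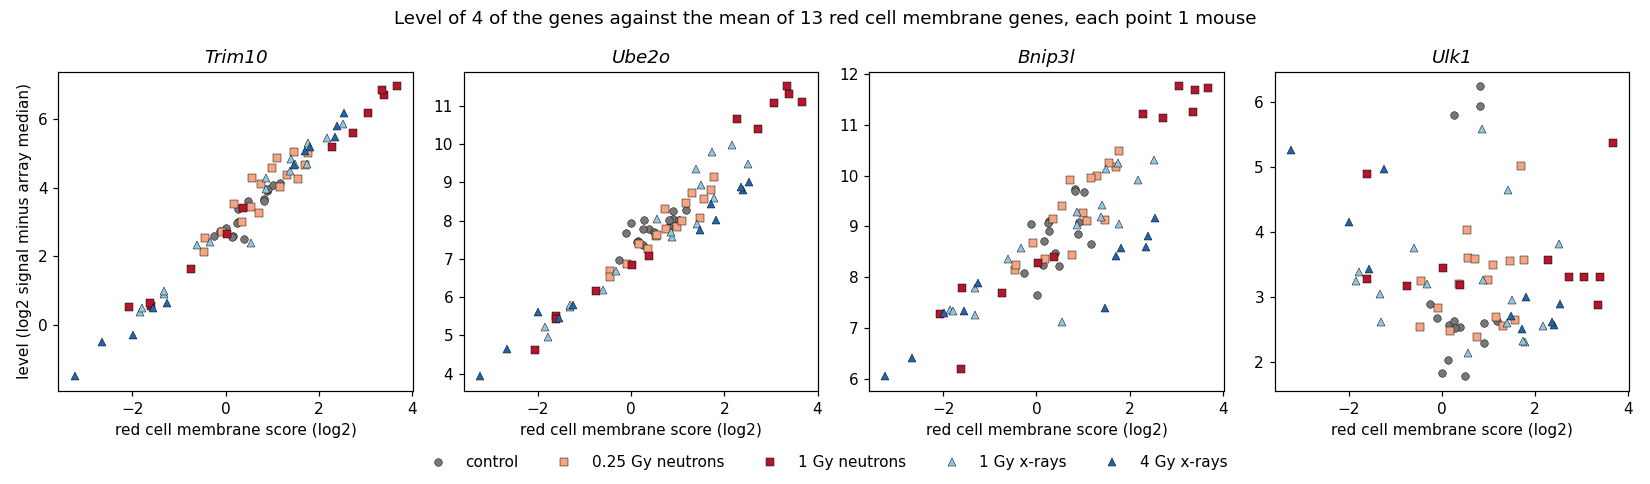
Level of Trim10, Ube2o, Bnip3l and Ulk1 (log2 signal minus array median) against the mean log2 level of 13 red cell membrane genes, each point 1 mouse and each marker an exposure. Trim10 rises along the score in a band and Ulk1 shows no band. Bnip3l after 4 Gy x-rays lies at 7.40 to 9.16 for the day 7 mice, below the 1 Gy x-ray mice of that day. The part of red cell content in this was not tested. Slopes in the control mice are not called with spike-in centring.

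The controls of day 7 and day 1 did not differ past the thresholds in any of the 10 genes by limma, where 4.99% of all genes were called in either direction, and 3 of the 10 had an unadjusted p below 0.05, as had 38.2% of all genes. The 3 were Ulk1 at 2.06 (95% interval 0.24 to 3.87, adjusted p = 0.0917), Bnip3l at 0.66 (0.07 to 1.25, adjusted p = 0.0925) and Ubac1 at 0.52 (0.10 to 0.95, adjusted p = 0.0703). The other 7 lay between -0.19 and 0.51.

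Within the set, likeness over the arrays was measured as Pearson's r with the mean of the 10 scaled genes, a description over 72 mice that share groups and scaling. It was 0.90 to 0.99 for the 9 genes that moved together, with Ubac1 highest at 0.986 and Ube2l6 lowest at 0.895, and 0.067 for Ulk1. After removal of group means, the 36 pairs without Ulk1 had r from 0.369 to 0.896 (median 0.713) and the 9 pairs with Ulk1 from -0.134 to 0.40 (median 0.081). The probe of Wdr26 followed its second probe with r = 0.879, that of Ube2h with 0.931, that of Ubac1 with 0.979, and the Bnip3l probes with 0.937 to 0.974.

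Of the other 10318 genes, those most like the mean of the set were Specc1 (r = 0.989), Samd11 (0.983), Btg3 (0.981), Glrx5 (0.981), an iron-sulphur cluster protein of red cell precursors, Mpp1 (0.980), the membrane protein p55, Usp15 (0.980), a deubiquitinase, Dcaf12 (0.979), a receptor of CUL4 ligases, a transcript listed as ENSMUST00000102642 (0.978), Bsdc1 (0.977) and Yipf4 (0.977). The probe of that transcript lies at chr2:84650257-84650316 (mm9, plus strand), close to the Ube2l6 probe at chr2:84649861-84649920, and followed it with r = 0.924.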

How the data were processed

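The authors scanned 1-colour arrays of 72 mice and deposited the Feature Extraction 12.0.2 intensities of 44397 spots per array, corrected for background within an array and not normalized between arrays. A table of log2 values, which the authors normalized between arrays, was deposited too. Of its 72 columns, 12 track the array they are named for and 60 a different one, so this table served only as an alternative for 0.25 Gy neutrons at day 1, with 5 irradiated and 5 control mice.

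Here the deposited intensities were log2-transformed, outlier and non-uniform spots left out, spots of a probe averaged, and the median of the detected probes subtracted array by array. Detection required that under 25% of a probe's spots, counted over the 56 arrays outside day 3, were dim or outlying. A gene was tested if its brightest detected probe differed at least 1.5-fold from its median on 20% of those arrays (10328 of 16086 genes). Pairs of groups were fitted alone in R 4.3.3 with lmFit and eBayes of limma 3.58.1, 2-sided. Calls needed p below 0.001 and an FDR (Benjamini and Hochberg, all genes tested) below 5%, as in the study's methods. Slopes were fitted with group as a covariate. The steps were tested on simulated data. The members, the gene lists and the tests were chosen with earlier results of these data known. Named are all members, the 10 genes most like their mean, and related genes listed with them. Interferon, autophagy, ubiquitin, CTLH, red cell, erythroid regulator, B, T and NK cell, neutrophil, monocyte, platelet and hepatocyte lists were written by hand. Depth of an array is its signal over background, and the number of mice limits the precision. The p-values measure the spread between mice of a group. Alternatives were 75th percentile scaling, quantile normalization, centring on 7 spike-in probes, normexp with an offset of 50, dim spots as missing, no filters, all probes of a gene averaged, a random variance test, scan date and replicate block, slide as a random block and leaving out each mouse.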

Additional observations from a re-analysis of the deposited data

Results flagged for a closer look

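Of 130 readings of a gene in a group, 9 held a mouse far from the rest by Dixon's criterion, which chance alone meets in about 1 in 20 groups. Replicate 1 after 1 Gy x-rays at day 3 stood apart in Wdr26 (-0.82, others 4.38 to 5.19), Ubac1 (2.85, others 5.64 to 5.91) and Bnip3l (7.12, others 9.04 to 9.43). Replicate 6 of the day 7 controls stood apart in Ube2l6 (8.42, others 8.99 to 9.30) and Fbxo9 (4.44, others 5.09 to 5.44), and replicate 1 of the day 3 controls in Ube2l6 (7.73, others 8.64 to 8.98). Ulk1 had a distant mouse after 0.25 Gy neutrons at day 3 (replicate 1, 2.49), after 1 Gy neutrons at day 1 (replicate 1, 4.89) and after 1 Gy neutrons at day 7 (replicate 3, 5.38).

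In 26 cases every mouse of an exposure lay on one side of the mean of its controls at day 1 and every mouse on the other side at day 7, and the difference was not tested. After 0.25 Gy neutrons these were Wdr26 and Ube2o, whose day 7 difference exceeded that of day 1 by 1.58 and 1.47. After 1 Gy neutrons the gap was 4.85 for Wdr26, 4.72 for Yod1, 4.11 for Ubac1, 4.82 for Ube2h, 5.09 for Ube2o, 2.88 for Ube2l6, 3.78 for Fbxo9 and 3.18 for Bnip3l. After 1 Gy x-rays it was 3.42 for Wdr26, 3.85 for Yod1, 2.51 for Ubac1, 3.24 for Ube2h, 3.77 for Ube2o, 1.46 for Ube2l6, 2.91 for Fbxo9 and 3.28 for Trim10. After 4 Gy x-rays it was 3.71 for Wdr26, 4.46 for Yod1, 2.99 for Ubac1, 3.85 for Ube2h, 2.60 for Fbxo9 and 5.12 for Trim10. Ulk1 ran the opposite way, from above the mean of the controls at day 1 to below that of the uneven day 7 controls, inside whose range it stayed, by -2.41 (1 Gy x-rays) and -3.79 (4 Gy x-rays).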

How the results depend on the processing

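Of 2170 recomputed differences of single genes from controls, 2077 moved by less than the spread between mice and 93 by more. Of 3019 recomputed calls of single genes, 2839 kept their side of the threshold, 167 changed it and 13, all called in the main fit, turned their sign. Turns of sign in genes not called in the main fit were not counted. The settings that decided the day 7 results were the scaling and the background correction, and the cause was not tested. With spike-in centring the median difference of the 10 genes from controls was -0.89 after 1 Gy neutrons at day 1, -0.021 after 1 Gy x-rays at day 3, and -0.42, 0.57 and 0.39 after 0.25 Gy neutrons, 1 Gy neutrons and 1 Gy x-rays at day 7. With normexp it was -0.24 and 1.11 after 0.25 and 1 Gy neutrons at day 7. With quantile normalization it was -2.55 for 4 Gy x-rays, day 1, and 1.5 for 1 Gy neutrons, day 7, with dim spots as missing 2.09 there, and with scan date as a fixed block 0.37 after 0.25 Gy neutrons at day 3. The deposited table gave -0.66 for 0.25 Gy neutrons at day 1, and the random variance test left every count of calls as it was in the 9 comparisons it was run on.

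For 1 Gy neutrons against 1 Gy x-rays at day 7, the 8 calls became 5 with 75th percentile scaling, 1 with quantile normalization, 0 with spike-ins, 0 with normexp, 3 with dim spots as missing, 1 with no detection filter, 3 with scan date as a block and 5 with slide as a random block. With normexp the differences were -0.16 for Wdr26, -0.0030 for Yod1, -0.090 for Ubac1, -0.018 for Ube2o, -0.24 for Ube2l6, -0.35 for Fbxo9 and -0.20 for Bnip3l. Against 4 Gy x-rays the 8 calls became 2 with quantile normalization, 1 with spike-ins and 0 with normexp, and with spike-ins Wdr26 (-0.68), Yod1 (-0.77), Ubac1 (-0.47), Ube2h (-0.49) and Fbxo9 (-0.73) turned. Against 0.25 Gy neutrons the 9 calls became 3 with spike-ins, 0 with normexp and 1 with scan date as a block, and Bnip3l was at -0.071 with quantile normalization. For 4 Gy against 1 Gy x-rays the 2 calls became 0 with quantile normalization, 1 with spike-ins (Trim10), 1 with no detection filter and 1 with scan date as a block. Slopes in control mice gave 2 calls with quantile normalization and 0 with spike-ins, normexp or no detection filter, and in irradiated mice 5 with normexp. Slide as a random block, chosen after seeing the data, gave 2 calls for 1 Gy neutrons against 4 Gy x-rays and 1 against 0.25 Gy neutrons at day 1.

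Same-numbered mice did not deviate together throughout: over 100 pairs in 19 comparisons r ran from -0.623 to 0.653, and in none were all pairs over 0.1. All pairs were positive for 1 Gy x-rays against controls at day 7 (0.06 to 0.41) and 1 Gy against 0.25 Gy neutrons at day 1 (0.03 to 0.52). The main fits therefore did not pair the mice by number. With a replicate block the count for 1 Gy neutrons against 1 Gy x-rays at day 7 was 1, that for 4 Gy against 1 Gy x-rays 1, and that of slopes in control mice 0, and no other count moved by more than 1.5 times.

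Leaving out 1 mouse at a time moved the day 1 medians over -0.50 to -0.20 (0.25 Gy neutrons), -1.55 to -1.24 (1 Gy neutrons), -1.67 to -1.39 (1 Gy x-rays) and -2.04 to -1.85 (4 Gy x-rays), the day 3 medians over 0.79 to 1.10 and 0.55 to 1.10, and the day 7 medians over 0.58 to 0.81, 2.50 to 2.80, 1.10 to 1.45 and 0.77 to 1.02. Calls ran from 4 to 8 for 1 Gy neutrons against 1 Gy x-rays at day 7 (lowest without replicate 1 of the x-ray group), stayed at 8 against 4 Gy x-rays and at 9 against 0.25 Gy neutrons, and ran from 1 to 2 for 4 Gy against 1 Gy x-rays. At day 1 they ran from 0 to 1 for 4 Gy against 1 Gy x-rays and from 0 to 2 for 1 Gy against 0.25 Gy neutrons, and stayed at 0 in the others and in the controls of days 7 and 1. Slopes gave 1 to 4 calls in control mice and 9 in irradiated mice. The low signal after 1 Gy neutrons at day 7, with a median spot signal of 9.52 to 16.8 against 32.2 to 50.5 in the controls, limits how well small changes are read there. The large differences of that group also depended on the scaling and the background correction, as given above. The part of the low signal in them was not tested.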

Other observations

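Regulators and heme enzymes of red cell precursors, 17 genes of which 16 were tested, followed the 10 genes in part. After 1 Gy neutrons at day 7, 13 were called higher and none lower, with a median of 2.24, where 25.3% and 13.4% of all genes were called, and in the 4 Gy x-ray group 5 were higher, none lower, with a median of 0.47, against 9.12% and 8.66% of all. Klf1 was higher by 2.85 and 1.71 in these comparisons and Alas2 read 2.18 and -0.56. Between 4 Gy and 1 Gy x-rays at day 7, 1 of the 16 was higher and 4 were lower, Alas2 among the latter, against 4.09% and 5.64% of all genes. At day 1, 1 was higher and 1 lower after 1 Gy neutrons, against 7.16% and 10.4% of all genes, and 2 were higher and 4 lower after 4 Gy x-rays, against 16.9% and 18.4%.

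Markers of B cells fell in 7 of 7 genes at day 1 and in 6 of 7 at day 7 after 1 Gy neutrons, and those of T cells in 3 of 9 and 2 of 9. Of all genes 10.4% were called lower and 7.16% higher in that group at day 1, and 13.4% lower and 25.3% higher at day 7. By limma, NK cell markers were called in 0 of 5 there at day 1 and at day 7, with 3 and 1 at an unadjusted p below 0.05. Neutrophil markers were called in 0 of 7 at day 1 (2 at an unadjusted p below 0.05) and in 4 of 7, all higher, at day 7. Monocyte markers gave 0 of 6 at day 1 (2 at an unadjusted p below 0.05) and 1 of 6 at day 7, and platelet markers 0 of 8 at day 1 (7 at an unadjusted p below 0.05) and 1 of 8 at day 7, the single calls being higher. Hepatocyte markers gave 0 of 7 calls by limma on both days, with 1 at an unadjusted p below 0.05 on each.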
